A study of Mus musculus with 73 samples.

Results

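DNA methylation was compared between mouse hepatocytes that lost Foxa1 and Foxa2 during liver development and hepatocytes that lost them in adulthood, at the FoxA binding sites measured in both settings. The members are the sites present, by chromosome and start, in both deposited whole-genome bisulfite sequencing (WGBS) tables: 28654 sites, of 33302 in the developmental table and 28659 in the adult table. Each site is 400 bp long, the coordinates are those of mm9, and the shared sites lie on the 17 chromosomes 3 to 19. Because many sites overlap, they cover 21998 separate regions, and overlapping sites share CpGs.

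All mice of the WGBS libraries carried the floxed genotype Foxa1L/L;Foxa2L/L. Libraries of a second bisulfite method, described further below, also include mice that lack Foxa3 and livers after partial hepatectomy. Their mice were aged from 20 days to 6 months. The groups of the WGBS comparison were as follows. Controls had no Cre and were 8 weeks old (2 libraries). Developmental nulls carried the Alfp Cre transgene, which acts in the developing liver, and were also 8 weeks old (2 libraries). Adult nulls were injected at 8 weeks with an AAV8 virus that carries Cre under the hepatocyte-specific Tbg promoter and were kept for 1 month (2 libraries). Age, Cre vehicle, virus injection and the time since deletion therefore differ with the group and cannot be told apart. Hepatocytes were isolated after collagenase perfusion on a Percoll gradient, and the labels give a purity above 95%. Methylation tables hold no transcripts, so neither the hepatocyte identity nor the extent of the deletion could be checked here. Nothing in the labels ties a library to a particular animal, so the p-values measure only the spread between these libraries.

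Foxa1 and Foxa2 encode forkhead pioneer factors, which bind their sites in closed chromatin and make them accessible to other factors. In the liver they act at the onset of hepatic specification and stay bound at enhancers in adult hepatocytes. Methylation of cytosine in CpG dinucleotides is typically low at active enhancers and high over most of the remaining genome.

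Developmental nulls had the higher methylation at FoxA sites, while adult nulls lay near controls. Averaged over all 28654 sites, the level was 25.6% and 25.5% in the developmental nulls, 19.8% and 20.3% in the adult nulls, and 20.6% and 22.4% in the controls. The null groups did not overlap, and both adult nulls lay below both controls. The developmental mean of 25.5% ± 0.078 (SD, n = 2) exceeded the adult mean of 20.0% ± 0.293 (SD, n = 2) by 5.49 percentage points. With 2 libraries a group, a two-sided exact permutation test cannot go below its result of p = 0.333. The median difference per site was smaller, at 2.51 points, and the differences ran from -4.23 points at the 5th percentile to 25.9 at the 95th.

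By limma's moderated test with Benjamini-Hochberg adjustment over all shared sites at 0.05, 2243 sites were higher in developmental than in adult nulls, 7.83% of those tested, and they covered 1904 separate regions. Sites that were lower numbered 59, or 0.206%, in 55 regions. Without the adjustment, 6373 sites had p under 0.05. Both developmental nulls lay above both adult nulls at 43.4% of all sites and below them at 7.63%. A mean difference above 20 points was found at 8.42% of sites, and one below -20 points at 0.352%. The called sites are thus those in which a separation found at many more sites was large against the spread.

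The count of calls rested on few libraries. Without adult null 1 it was 218 higher and 7 lower, and without adult null 2 it was 208 and 11. Leaving out developmental null 1 gave 764 and 25, and developmental null 2 gave 701 and 18. Without control 1, which entered only to estimate the spread, the counts were 1410 and 39, and without control 2 they were 1334 and 38. Higher sites made up 97.4% of the calls as tested. They made up 32.9% (2051 higher, 4188 lower) once each library was shifted by a constant to one common mean. After quantile normalisation they made up 81.2% (478 higher, 111 lower). The median site difference was -2.98 and -0.44 points under these adjustments. The shift takes the mean difference of 5.49 points off the difference at every site, including nearly unmethylated sites. A median difference of 2.51 points therefore turns negative by arithmetic. The direction of the typical site, though not of the large differences named here, depends on how the libraries' overall levels are treated.

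Over all shared sites, replicate nulls were seldom more than 20 points apart. Called sites were selected for a difference that was large against the replicate spread, so setting their differences beside it would be no test. The 2 developmental nulls differed by a median of 3.32 points, with 0.701% of sites more than 20 points higher in the first and 0.764% in the second. The 2 adult nulls differed by a median of 2.89 points, with 0.6247% and 0.628% of sites beyond 20 points. Between a developmental and an adult null, 9.25% to 9.49% of sites were more than 20 points higher in the developmental library and 0.513% to 0.586% were lower. All 4 such pairings gave an excess on the developmental side.

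**Figure D1:**
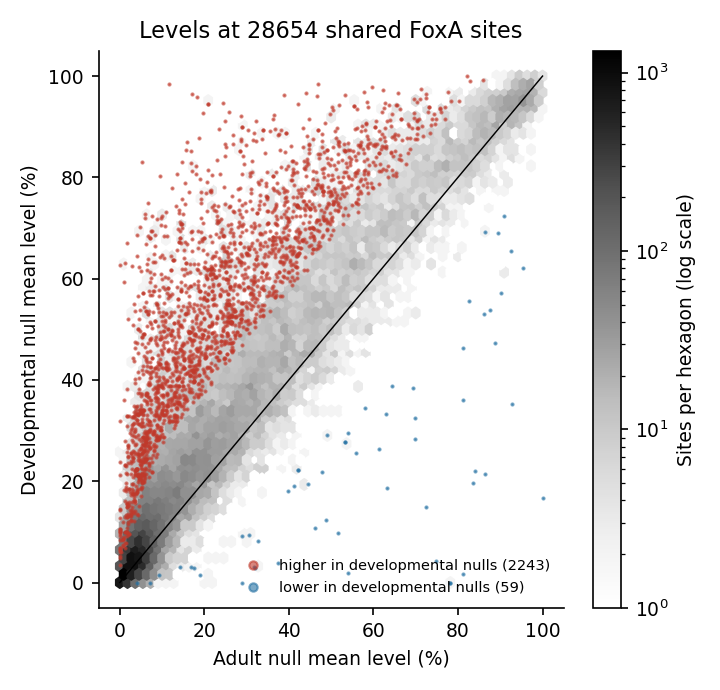
Mean methylation level in percent of the 2 developmental nulls (vertical axis) against that of the 2 adult nulls (horizontal axis) at the shared FoxA sites, with grey hexagons shaded by the number of sites on a log scale and the line of equal levels in black. Red points are the 2243 sites called higher, and blue points are the 59 called lower. Most of the red points lie over adult levels below 40%, as do most of all shared sites.

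At the 2243 higher sites the mean level was 54.5% and 55.1% in developmental nulls, 24.5% and 24.5% in adult nulls, and 25.7% and 27.9% in controls. The differences had a median of 28.1 points and ran from 3.52 to 87.0. Since these sites were chosen on the difference between the null groups, those levels are a description. Methylation in developmental nulls was mostly partial: 316 of the higher sites (14.1%) reached 80% or more, and 679 (30.3%) lay from 40% to 60%. Of all shared sites, 7.04% and 10.8% lay in these bands in developmental nulls. In adult nulls 1102 of the higher sites (49.1%) were below 20%, fewer than the 67.3% of all shared sites. A mean of at least 50% in adult nulls was found at 252 higher sites, a count without a computed share over all sites.

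The contrast did not use the control levels, but choosing sites with high developmental and low adult levels also bears on where the controls lie beside them, so the following counts are a description. The control mean lay nearer to the adult than to the developmental mean at 95.1% of the higher sites and at 58.7% of all shared sites. Both controls were below both developmental nulls at 2216 of the 2243 (98.8%), against 33.6% of all shared sites. Both controls were above both adult nulls at 753 of them (33.57%), against 28% of all. At 27 of the higher sites the controls were apart from the adult nulls but not from the developmental ones. The share of such sites among all shared sites was not computed, so this count has no background.

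The difference varied with how methylated a site was in controls. Of the 6561 sites below 5% in controls, 134 (2.04%) were higher, and the mean difference was 1.32 points. From 5% to 20%, 882 of 12166 sites (7.25%) were higher, with 5.33 points. The share peaked in the middle: 706 of 4571 sites (15.4%) from 20% to 40%, with 10.3 points, and 378 of 2585 (14.6%) from 40% to 60%, with 9.71. It fell again to 128 of 1500 (8.53%) from 60% to 80% and to 15 of 1271 (1.18%) at 80% or more, with 6.42 and 1.499 points. In this last class the adult nulls averaged 88.8%, which leaves little room for a higher level below 100%. Its low share cannot be told apart from that limit of the scale. In each class both developmental nulls lay above both adult nulls, and each exact permutation test gave p = 0.333 (0.333 after Benjamini-Hochberg adjustment over the classes), the smallest possible.

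Adult nulls and controls can be set side by side in the same classes. Between 5% and 20%, the adult nulls were at 7.21% and 8.08%, below the controls at 8.86% and 11.2%, and the developmental nulls were at 13.0% and 13.0%. Between 20% and 40%, the adult nulls were at 27.3% and 27.4%, the controls at 27.7% and 30.2%, and the developmental nulls at 37.8% and 37.6%. From 40% to 60%, 57.6% and 57.3% in developmental nulls stood against 47.8% and 47.6% in adult nulls. Control libraries define the classes, so their own levels are given without a test.

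**Figure D2:**
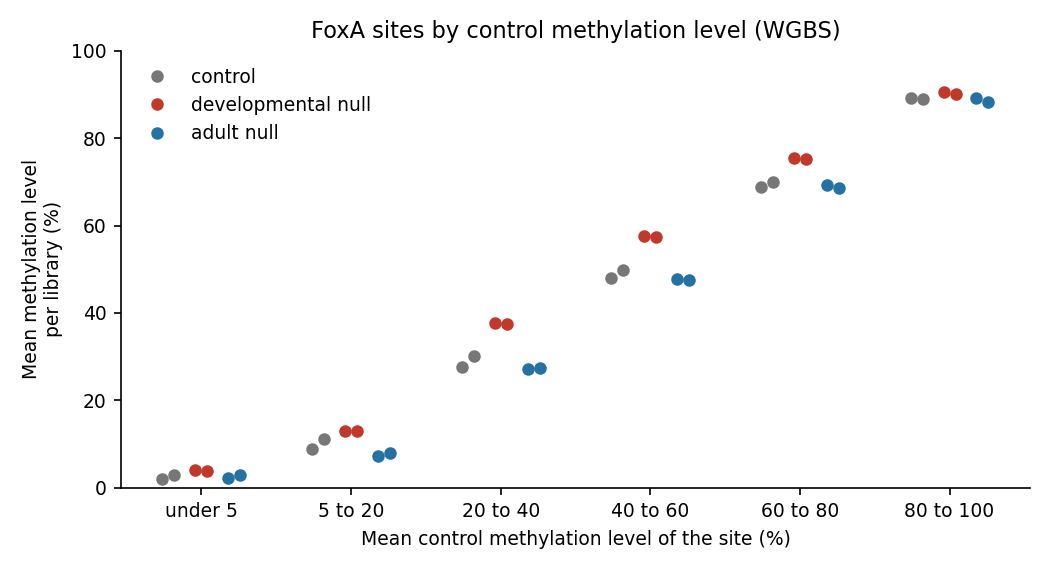
Mean methylation level per library in percent (vertical axis) over sites grouped by their mean control level (horizontal axis, percent), with 2 points for each of the control, developmental null and adult null groups. The developmental nulls stand above the other groups most clearly between 20% and 60%, where they exceed the adult nulls by 10.3 and 9.71 points.

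The sites with the steepest difference went from low methylation in adult nulls to nearly full methylation in developmental nulls. The largest was at chromosome 12, 92170469 to 92170868, with 100% and 97.1% in developmental nulls, 15.1% and 8.00% in adult nulls, and 3.77% and 21.6% in controls. Its difference was 87.0 points (SE 6.50, limma adjusted p = 0.00276). Developmental libraries stood apart from all 4 others.

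At chromosome 11, 26313690 to 26314089, developmental nulls had 76.3% and 89.7%, adult nulls 3.45% and 6.90%, and controls 4.17% and 8.00%. This difference was 77.8 points (SE 5.56, limma adjusted p = 0.00276), and the adult nulls overlapped the controls. At chromosome 9, 69230848 to 69231247, the replicates lay close together, with 80% and 80.7% in developmental nulls, 9.38% and 9.54% in adult nulls, and 9.09% and 12.2% in controls. At chromosome 13, 38828124 to 38828523, the values were 88.5% and 82.4%, 15.4% and 16.1%, and 5.88% and 7.69%, so that here both adult nulls stood above both controls.

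Chromosome 10, 24191741 to 24192140, differed from these in its controls. Developmental nulls had 91.7% and 100%, controls 42.1% and 59.3%, and adult nulls 25.0% and 11.5%, so the controls lay between the null groups. A like order was seen at chromosome 17, 53785916 to 53786315, with 86.0% and 94.0% in developmental nulls, 40% and 56.9% in controls, and 30.5% and 27.4% in adult nulls. Chromosomes 4, 6, 7, 9 and 16 held the remaining sites among the 10 largest, which differed by 70.1 to 79.3 points. All 10 kept their call in each of the 17 alternative fits that included them. The chromosome 17 site did not pass without adult null 1 (62.6 points) or without adult null 2 (59.5 points).

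**Figure D3:**
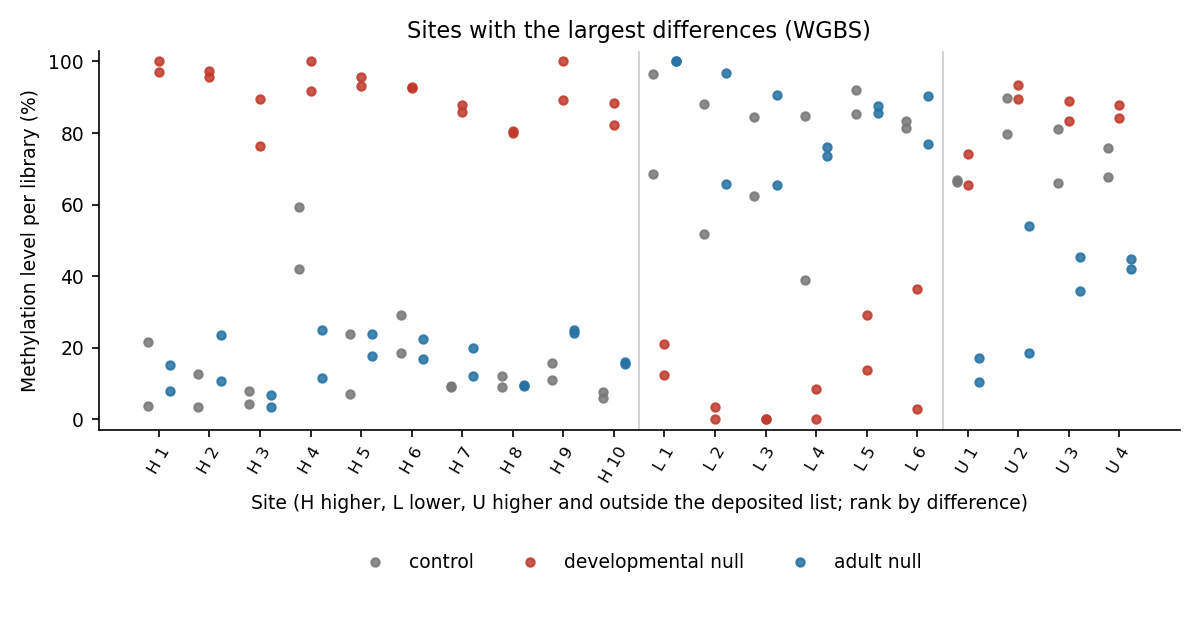
Methylation level per library in percent (vertical axis) at 20 sites chosen by rank of the difference between null groups (horizontal axis): the 10 largest higher ones, the 6 largest lower ones and the 4 largest higher ones outside the deposited hyper-methylated list, with each of the 6 libraries as a point. Control points lie with the adult nulls at most sites of the first 2 sets and nearer to the developmental nulls in the last set.

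Of the authors' deposited hyper-methylated list, 2267 sites are among the shared ones. It was chosen on the developmental nulls and controls, so its overlap with the calls is not independent evidence of direction. Of the shared listed sites, 1572 (69.3%) were higher than in adult nulls and 0 were lower. The other 671 higher sites were not listed. These had 42.7% and 42.9% in developmental nulls, 22.1% and 22.3% in adult nulls, and 28.02% and 29.7% in controls. The list holds the sites whose developmental mean exceeded the control mean by more than 20 points, so the place of the controls between the null groups at unlisted sites is largely set by the choice.

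The 4 largest unlisted sites were lower in adult nulls than in both controls and both developmental nulls. At chromosome 9, 50308817 to 50309216, controls had 66.4% and 67.0%, developmental nulls 65.5% and 74.2%, and adult nulls 10.3% and 17.1%. The difference was 56.1 points (SE 4.85, limma adjusted p = 0.00291), and the developmental nulls overlapped the controls. At chromosome 8, 126250763 to 126251162, controls had 65.9% and 81.1%, developmental nulls 83.3% and 89.0%, and adult nulls 45.2% and 36.0%. At chromosome 12, 111460171 to 111460570, the adult nulls had 44.8% and 42.0%, against 75.9% and 67.8% in controls and 87.7% and 84.2% in developmental nulls. The adult nulls were least alike at chromosome 4, 126794155 to 126794554, with 54.0% and 18.6%. That site lost its call without adult null 2 (37.5 points), either developmental null (53.2 and 57.3) or either control (55.2 in both cases). It also lost it without the variance trend, with the 4 null libraries alone (55.2 in both) and after quantile normalisation (48.3). The chromosome 8 site lost it without either adult null (50.2 and 40.9) or developmental null 2 (42.7), and the chromosome 12 site without adult null 2 (41.1).

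The 59 sites lower in developmental nulls had 23.7% and 24.4% there, 59.4% and 57.1% in adult nulls, and 54.2% and 53.8% in controls. Both controls were above both developmental nulls at 50 of them (84.7%), against 15% of all shared sites, in a set chosen for low developmental levels. None of the 59 was in the deposited list. The largest, at chromosome 7, 37989395 to 37989794, had 20.9% and 12.5% in developmental nulls, 100% and 100% in adult nulls, and 96.4% and 68.6% in controls. The difference was -83.3 points (SE 8.51, limma adjusted p = 0.00415). At chromosome 7, 47085547 to 47085946, both developmental nulls were at 0%, against 90.6% and 65.4% in adult nulls and 84.6% and 62.5% in controls. An overlapping site that starts at 47085605 has the same 6 values. At chromosome 8, 34442383 to 34442782, the values were 13.7% and 29.2%, 85.5% and 87.5%, and 85.5% and 92.1% in the same order of groups. The first of these sites did not pass without either adult null (-83.3 points in both cases), nor the second without adult null 1 (-65.4) or developmental null 2 (-78.0), while the chromosome 8 site passed each time.

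Chromosome 7 held 14 of the 59 lower sites (23.7%) but 5.81% of the shared sites, and it had the smallest share of higher sites, 6.19%. Chromosome 4 had the largest share of higher sites, 9.68%. The lower sites of chromosome 7 are not all separate loci. Those that start at 38740980 and 38741021 overlap, as do those at 47085547 and 47085605. Others lie close together, such as those at 37987954 and 37989395. The chromosome 7 sites were chosen for comment after their values were seen. At chromosome 7, 73416099 to 73416498, the developmental replicates were unequal, at 3.02% and 36.5%, with 90.3% and 76.8% in adult nulls. At chromosome 7, 37987954 to 37988353, developmental nulls were at 0% and 8.33%, adult nulls at 76.2% and 73.6%, and controls at 84.7% and 38.9%. Neither of these passed without either adult null (-57.1 and -70.6 points at the first, -69.4 and -72.0 at the second), and the second did not pass without either developmental null (-66.6 and -74.9). The first also lost its call with the 4 null libraries alone (-63.8), and the second without the variance trend (-70.7). Without chromosome 7, 45 lower sites were left, an alternative chosen after seeing the data.

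Higher sites were found more often near other higher sites. Of the 276 sites within 500 bp of a higher site in another group of overlapping sites, 17.4% were higher. The share was 16.9% from 500 to 1000 bp, 14.9% to 2000 bp and 14.1% to 5000 bp. From 5000 to 10000 bp it was 8.85%, and from 50000 bp on it was 7.20%, near the 7.83% of all sites. Mean control levels were similar at all of these distances, from 19.6% to 21.8%. No test was made of this. Counting overlapping sites as well, 1144 of the 2243 higher sites (51.0%) had no other higher site within 50000 bp, against 73.1% of all shared sites. With overlapping sites left aside the shares were 69.5% and 75.5%.

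**Figure D4:**
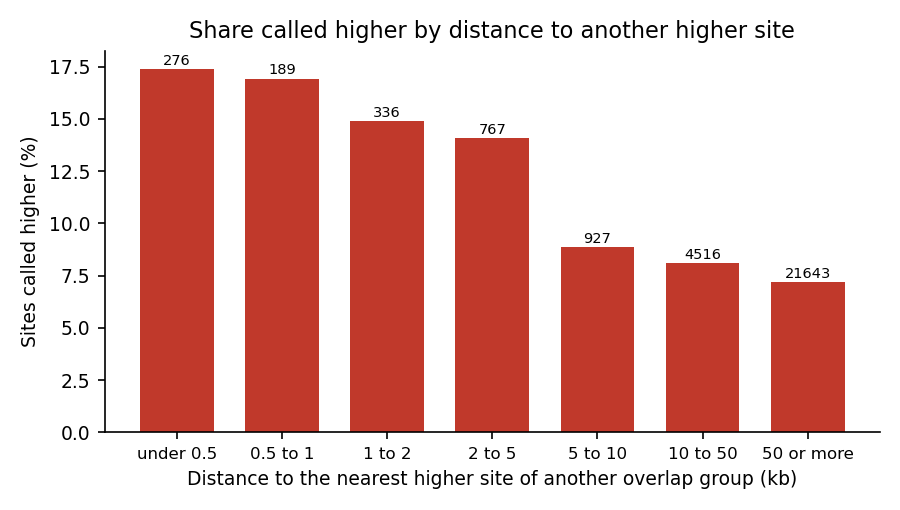
Share of sites called higher in percent (vertical axis) by the distance in kb to the nearest higher site of another overlap group (horizontal axis), with the number of sites above each bar. The share is 14.1% to 17.4% below 5 kb and 7.20% to 8.85% beyond.

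Joining sites within 5000 bp of each other gave 16175 stretches, of which 1798 held a higher site. At least 2 separate higher regions were found in 98 stretches, which held 247 of the 2243 higher sites. The 3 stretches with the most higher sites lay on chromosomes 4 and 8. On chromosome 8, 120117760 to 120119419, all 4 sites were higher, with means of 69.9% and 73.6% in developmental nulls, 21.8% and 19.03% in adult nulls, and 25.8% and 30.9% in controls. Within it the first site was at 72.0% and 78.0% against 6.94% and 6.63% in adult nulls, whereas the last, which starts at 120119020, was already high, at 59.5% and 54.0% in adult nulls against 78.2% and 80.4%. On chromosome 4, 90159280 to 90164342, 5 of 6 sites were higher, with 63.6% and 60.9% against 23.8% and 23.1%. On chromosome 8, 25683450 to 25687094, 5 of 6 sites were higher, with 32.5% and 41.1% against 4.95% and 6.08%.

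Reduced representation bisulfite sequencing (RRBS) libraries, which did not enter the calls, gave a separate measurement at 100 bp tiles inside the called sites. They comprised 4 developmental nulls and 4 controls, with 1 library of each genotype from mice aged 20 days, 8 weeks, 4 months or 6 months. There were also 3 adult double nulls and 2 GFP-virus controls, 12 weeks old, after partial hepatectomy. Adult triple nulls were taken 7 days after induction at 9 weeks (3 libraries) and 13 days after induction at 12 weeks (2 libraries). Each set had as many GFP controls, which also lack Foxa3. Over 97 tiles in higher sites with a value in every age-series and hepatectomy library, the 4 developmental nulls had 41.4% ± 5.08 (SD, n = 4) and the 3 adult nulls after hepatectomy 21.4% ± 1.4996 (SD, n = 3). The libraries did not overlap, at 37.1% to 48.5% and 20.1% to 23.02%. The difference was 20.0 points, with p = 0.0571 in a two-sided exact permutation test, the smallest that 4 against 3 libraries allow. Their controls had 22.1% ± 8.57 (SD, n = 4) and 18.9% ± 1.53 (SD, n = 2), with an exact permutation p of 0.933, and overlapped. Age, virus, regrowth after hepatectomy and experiment differ with the group here and cannot be told apart.

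Tile by tile, 53 of the 97 (54.6%) had all 4 developmental nulls above all 3 adult nulls, against 26.1% of the 3189 tiles compared. The median difference was 17.7 points in these tiles and 1.66 in the 3090 tiles of sites not called. Across the 3189 tiles, which are not independent replicates, the RRBS and WGBS differences had a Pearson's r of 0.53 and a Spearman's rho of 0.11, given as a description.

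Set against its own controls, the developmental series was the one with a large difference. The tiles lie in sites chosen in WGBS for higher developmental than adult null levels. A ranking of the experiments over these tiles is therefore not independent of that choice. Over 99 tiles in higher sites, developmental nulls had 41.0% ± 5.17 (SD, n = 4) and controls 22.0% ± 8.70 (SD, n = 4). The difference was 18.99 points, with an exact permutation p of 0.0286, the lowest this design gives (0.114 after Benjamini-Hochberg adjustment over 4 experiments). Leaving out any 1 of the 8 libraries gave 16.5 to 23.1 points, and 4 against 3 libraries cannot pass 0.05. Tiles of unlisted higher sites differed by 10.3 points, with an exact permutation p of 0.0857. Those tests ignore the match by age. Within each age the null was the higher library, by 13.7 points at 20 days and by 20.04 points at 8 weeks. The 4-month pair differed by 18.9 points and the 6-month pair by 23.3. In unlisted sites the pairs differed by 8.61 to 12.0 points. An exact permutation test within ages, added after seeing the data, gave p = 0.125 for both sets, the lowest that 4 pairs can give. Null libraries ranged from 36.5% at 4 months to 48.1% at 20 days, and controls from 14.6% at 6 months to 34.4% at 20 days, so the youngest library was highest in both groups.

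In the adult experiments the differences were small. Triple nulls at day 7 had 21.2% ± 1.05 (SD, n = 3) against 23.7% ± 0.549 (SD, n = 3), a difference of -2.48 points over 144 tiles. The exact permutation p was 0.1, as low as 3 against 3 libraries can give. The day 13 difference was -2.39 points over 124 tiles (n = 2 and 2, exact permutation p = 0.333, also the lowest value). After hepatectomy, nulls had 22.6% ± 1.14 (SD, n = 3) and controls 19.1% ± 2.02 (SD, n = 2), a difference of 3.48 points over 140 tiles (exact permutation p = 0.2, the smallest possible). In listed sites the hepatectomy difference was 5.33 points over 92 tiles (exact permutation p = 0.2, again the smallest possible). In unlisted sites it was -0.064 points. In tiles of sites not called the day 7, day 13 and hepatectomy differences were -1.50, -1.05 and 0.072 points, and the developmental series differed by 0.688.

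**Figure D5:**
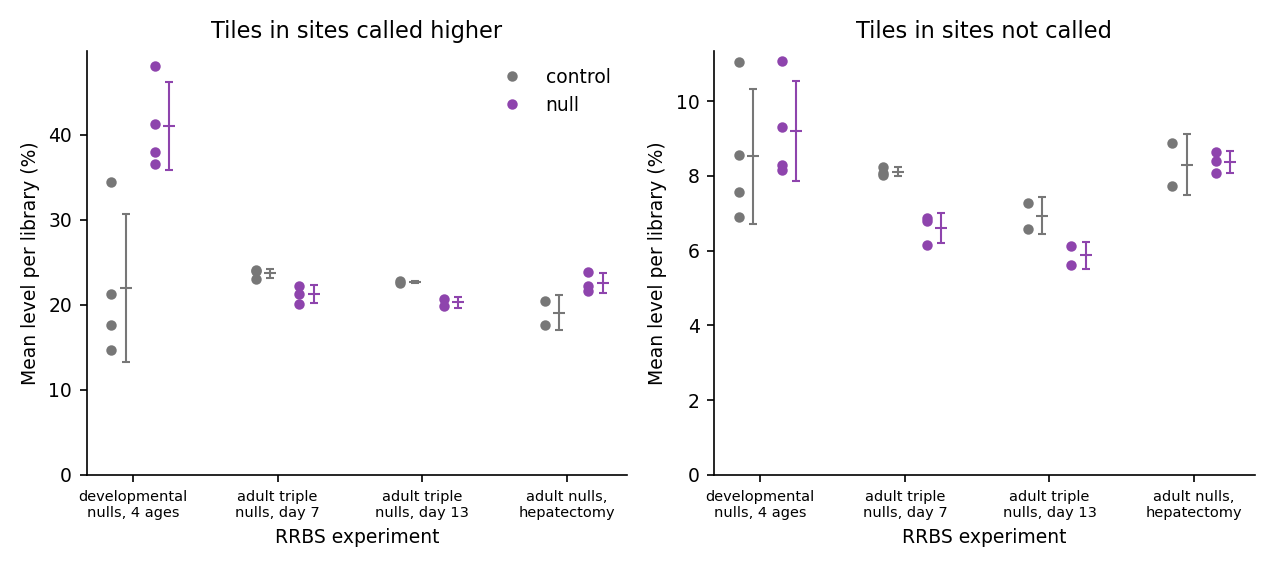
Mean RRBS methylation level per library in percent (vertical axes) over tiles inside sites called higher (left) and not called (right) for each experiment (horizontal axes), with points for libraries and bars for the mean ± SD of controls (grey) and nulls (purple). Developmental nulls lie at 36.5% to 48.1% in the left panel, above every other library shown there.

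The 4 higher sites with the largest differences among those with complete tiles gave RRBS levels in single libraries. At chromosome 5, 130548943 to 130549342, WGBS levels were 50.0% and 66.8% in developmental nulls and 7.14% and 13.5% in adult nulls. Its tile had 75%, 69.4%, 70.9% and 80% in developmental nulls of 20 days, 4 months, 6 months and 8 weeks, and 7.06%, 6.15% and 16.7% in the adult nulls after hepatectomy. Controls of the developmental series had 38.3%, 13.7%, 6.67% and 2.22% at the same ages, and hepatectomy controls had 10.8% and 10.5%. The developmental and adult null libraries did not overlap. Its WGBS difference of 48.1 points did not pass without adult null 1 (44.96), adult null 2 (51.3) or developmental null 2 (39.7).

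At chromosome 16, 32461849 to 32462248, the tile had 60.4%, 82.8%, 97.2% and 80.6% in developmental nulls and 36.7%, 34.6% and 25.0% in adult nulls. Controls of the developmental series had 8.82% to 20%. The hepatectomy controls had 16.7% and 21.1%, below all 3 adult nulls. WGBS levels there were 22.8% and 34.6% in adult nulls and 12.2% and 18.3% in controls. At chromosome 3, 121171735 to 121172134, 3 tiles had developmental null means of 46.4%, 58.9% and 32.1% against adult null means of 9.13%, 8.17% and 4.45%. Means were 12.7%, 7.78% and 6.91% in the controls of the developmental series and 7.86%, 3.13% and 1.56% in the hepatectomy controls. At chromosome 18, 59238978 to 59239377, the tile had 97.8%, 86.7%, 94.7% and 94.0% against 53.0%, 53.3% and 73.4%. Controls of its developmental series were wide apart, at 76.2%, 69.7%, 8.89% and 46.5%, and hepatectomy controls had 57.3% and 31.5%. In each of these tiles all developmental nulls lay above all adult nulls.

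HNF6 (Onecut1), a homeodomain factor of hepatocytes that binds many enhancers together with FoxA, had deposited chromatin immunoprecipitation peak lists from 3 controls, 2 developmental nulls and 2 adult nulls. Peaks in all 3 control lists overlapped 22 of the 2243 higher sites (0.981%) and 507 of the 26352 sites not called (1.92%). Methylation was low at the 530 such sites in all, at 10.8% and 10.2% in developmental nulls and 7.13% and 7.70% in adult nulls, and 22 of them (4.15%) were higher. Among the 26142 sites with no control peak, 8.08% were higher. The sign of this difference varied with the control methylation level. Below 5%, 1 of 135 sites with a peak in all 3 lists (0.741%) was higher, against 2.105% of those without. From 5% to 20% it was 8 of 343 (2.33%) against 7.69%. From 20% to 40% it was 10 of 40 (25%) against 15.4%, from 40% to 60% 3 of 9 against 14.6%, and from 60% on 0 of 3 against 5.12%.

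The 22 higher sites with a peak in every control list kept a peak in 11 and 3 cases in the developmental null lists and in 17 and 18 cases in the adult null lists. At the 507 such sites not called, the shares were 56.6% and 38.3%, and 96.4% and 98.0%. The lists were unequal: those of the developmental nulls hold 1178 and 566 peaks on the shared chromosomes with median widths of 91 and 92.5 bp, and those of the adult nulls 2903 and 4470 with 312 and 318.5 bp. Adult lists were made with MACS 1.4.3 and the others with 2.1.1. List length, peak width and caller thus differ between the developmental and adult null lists. Their contributions and that of the null group cannot be told apart, and no test was made.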

How the data were processed

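WGBS and RRBS levels were deposited as fractions from 0 to 1 and multiplied by 100. Reads were processed by the authors with Trim Galore 0.3.3 and BSMAP 2.74 on mm9, per the submitters' processing notes. The step from reads to one value for a site or tile was not stated in these sources. The tables give no coverage, so depth is unknown and no interval of a level was computed. HNF6 lists hold the authors' fold enrichment from MACS, per the file headers, and only peak positions were used. The deposited list of hyper-methylated sites gives positions only. A column of the adult table carries the header of developmental null 1 but equalled control 2 at all 28654 shared sites (tolerance 0.0001 points); it was not used. A further 4 RRBS library columns were not used.

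Sites were tested with limma 3.58.1 (R 4.3.3), using percent levels and a trended variance, contrasting developmental and adult nulls with controls in the fit for the spread. In simulated data 200 of 28654 sites were raised, far fewer than the real fit called. That fit recovered 79.5% of rises of 50 points, with 9 false calls, and 0% of rises of 20 or 30 points. The real fit called 1886 higher sites of at least 20 points, so the simulation does not measure its power. Sites that were not called may still differ. Library means entered two-sided exact permutation tests (Python 3.11.15, scipy 1.17.1). Tiles lay wholly inside a site, and a peak overlapped a site by at least 1 bp. Named sites, 1 per group of overlapping sites, were the 10 largest higher, 6 largest lower, 2 largest higher per control class, 4 largest unlisted and 4 largest with complete RRBS tiles, plus the 3 stretches with the most higher sites. The members and lists were chosen with earlier results of these data known. Gene tables supplied were of another build, so no gene names were assigned and the gene lists were not tested.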

Additional observations from a re-analysis of the deposited data

Results flagged for a closer look

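In tiles inside sites called higher, the nulls of some RRBS experiments all lay above their controls and those of others all lay below. The differences between experiments were not tested, and the sites were chosen in WGBS for higher developmental than adult null levels. The null minus control difference of the developmental series exceeded that of the day 7 triple nulls by 21.5 points and that of the day 13 triple nulls by 21.4 points. The day 7 and day 13 differences lay below that of the hepatectomy nulls, by -5.96 and -5.87 points. The triple nulls and their controls also lack Foxa3.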

How the results depend on the processing

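The counts of sites depended on the settings. Restricting to mean levels of 5% to 95% gave 3472 higher and 121 lower sites, and fitting the 4 null libraries alone gave 1269 and 34. Robust variances gave 92 lower sites. Quantile normalisation gave 478 and 111, and equal library means gave 4188 lower sites. Leaving out 1 library gave 208 to 1410 higher and 7 to 39 lower sites. The replicate block gave 1793 higher and 52 lower sites, of which 1722 higher ones were among those called without it. Same-numbered libraries share only a number: the correlations of their deviations were -0.0092, 0.0082 and 0.0065, so no pairing was assumed. In the RRBS age series, pairing the null and control of one age left the difference at 18.99 points with an exact permutation p of 0.125. Of 430 site and setting combinations for the 26 named sites, 397 kept direction and call, 33 kept direction only and 0 reversed. The named sites were chosen for large differences without overlap of the null groups, so leaving out a library could not reverse them. Several other settings left the difference itself unchanged, so the absence of reversals is no test of direction.

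The developmental RRBS difference was 10.3 points in unlisted sites and 20.4 without the 20-day libraries, and 16.5 to 23.1 when 1 library was left out, and none of these passed the threshold. With a library left out, or without the 20-day libraries, the smallest possible p is above it. The hepatectomy difference became -0.064 in unlisted sites, against 5.33 in listed ones. The cause of these changes, other than fewer libraries or sites, was not tested. Coverage is unknown, so levels of 0% or 100% may rest on few reads.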
